A study of Homo sapiens with 30 samples.

Results

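The Krüppel-like factors (KLF) are transcription factors that share a block of zinc fingers and bind GC-rich and CACCC-containing DNA. The 10 members described here (KLF2, KLF3, KLF4, KLF5, KLF6, KLF9, KLF10, KLF11, KLF13 and KLF15) were chosen by gene name among 58780 genes of the count table, and all 10 passed the filter on low counts. Earlier results of these data were known when they were chosen. Nascent transcription was measured by PRO-seq (precision run-on sequencing), which maps RNA that engaged polymerases extend in permeabilised cells. A value thus reflects engaged polymerase on the gene rather than stored mRNA. All 30 libraries came from A549, a human lung adenocarcinoma cell line, in 15 groups of 2, and all groups including the untreated one were in 0.01% DMSO. The study asked how nascent transcription responds to inhibition of protein arginine methyltransferases (PRMT), to the glucocorticoid dexamethasone (Dex), and to both.

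The untreated group is labelled 15 min, and it served as control for every duration. No untreated group was labelled 3 h or 2, 4 or 7 days, so treatment and elapsed time cannot be told apart at those durations. The comparisons with untreated cells share the same 2 untreated libraries, so their results are not independent. Dex alone was given at 100 nM for 15 min or 3 h. GSK591 inhibits PRMT5, a type II enzyme, and was given at 1 µM for 2, 4 or 7 days. MS023 inhibits type I PRMT enzymes and was given at 1 µM for the same 3 durations. In 4 further groups, 7 days of GSK591 or of MS023 were followed by 15 min or 3 h of Dex. The last 2 groups received Dex for 3 h together with GSK591 or MS023. The labels do not say whether the 2 samples of a group were independent cultures. The p-values rest on the spread between samples of a group, shared over all groups in a fit, and that spread may be technical.

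As background, the glucocorticoid receptor is a ligand-activated transcription factor that raises some genes within minutes of hormone. KLF9 and KLF15 are known as glucocorticoid-responsive in several tissues. KLF2 and KLF4 are known targets of the MEK5-ERK5-MEF2 pathway, and KLF10 and KLF11 were first described as early genes of TGF-beta. Some members mainly activate (KLF5, KLF6), whereas others recruit corepressors: KLF3 binds CtBP, and KLF9, KLF10, KLF11 and KLF13 bind SIN3A.

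Total counts per library ran from 8441211 to 13069598, of which 58.7% to 78.7% fell on mitochondrial genes, and the 10 members had 1885 to 5124 counts per library. Levels are given as CPM, counts relative to library size after TMM scaling, which sets aside the most extreme genes. In bulk libraries, fewer transcribing cells and less transcription per cell cannot be told apart. The keratins KRT8 (157 to 456 CPM) and KRT18 (56.5 to 189 CPM) and the A549 marker AKR1B10 (101 to 209 CPM) were high in every library. EPCAM (0.96 to 6.19 CPM) and CDH1 (1.00 to 6.65 CPM), which define most epithelia, were low. Of 12 endothelial, haematopoietic and fibroblast markers, COL1A1 reached 8.24 CPM and CD14 5.82 CPM, and the other 10 stayed lower, COL1A2 leading them at 2.20 CPM. FKBP5, a receptor-induced cochaperone that checks the hormone treatment, was at 5.56 and 5.24 CPM untreated and at 40.5 and 40.0 CPM after 3 h of Dex.

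Promoter sequence from RefSeq (GRCh38.p14, the same build as the hg38 counts) was available for 8 of the 10 members, not for KLF3 and KLF10. The windows of KLF2, KLF4, KLF6, KLF9 and KLF13 are shown because the calls of these 5 genes after 3 h of Dex held in every fit with 1 library left out. Each window holds up to 250 bases before the RefSeq start, 5′ to 3′ on the gene's strand, and stops before the first annotated exonic base. Capitals mark a MEF2 consensus site or a CCAAT box, read on either strand, so a CCAAT box on the other strand appears as ATTGG.
KLF2, chr19:16324576-16324816, plus strand: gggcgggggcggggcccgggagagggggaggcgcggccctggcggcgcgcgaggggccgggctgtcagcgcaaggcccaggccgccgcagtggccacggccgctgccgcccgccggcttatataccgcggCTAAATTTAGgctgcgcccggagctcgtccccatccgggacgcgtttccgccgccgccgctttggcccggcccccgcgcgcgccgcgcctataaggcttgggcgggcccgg
KLF4, chr9:107489770-107490019, minus strand: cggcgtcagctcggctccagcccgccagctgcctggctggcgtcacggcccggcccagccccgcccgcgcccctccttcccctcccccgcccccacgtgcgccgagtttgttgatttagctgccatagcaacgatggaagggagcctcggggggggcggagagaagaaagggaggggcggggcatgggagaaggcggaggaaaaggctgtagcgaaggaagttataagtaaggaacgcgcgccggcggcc
KLF6, chr10:3785282-3785459, minus strand: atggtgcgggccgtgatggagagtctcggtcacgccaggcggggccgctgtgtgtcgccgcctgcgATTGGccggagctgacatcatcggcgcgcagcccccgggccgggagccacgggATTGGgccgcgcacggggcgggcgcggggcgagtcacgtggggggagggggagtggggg
KLF9, chr9:70414658-70414907, minus strand: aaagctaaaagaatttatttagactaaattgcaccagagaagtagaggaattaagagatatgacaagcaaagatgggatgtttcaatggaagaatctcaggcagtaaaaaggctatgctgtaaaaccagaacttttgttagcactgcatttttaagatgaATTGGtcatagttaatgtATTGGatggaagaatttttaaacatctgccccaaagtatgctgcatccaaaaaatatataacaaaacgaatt
KLF13, chr15:31326585-31326834, plus strand: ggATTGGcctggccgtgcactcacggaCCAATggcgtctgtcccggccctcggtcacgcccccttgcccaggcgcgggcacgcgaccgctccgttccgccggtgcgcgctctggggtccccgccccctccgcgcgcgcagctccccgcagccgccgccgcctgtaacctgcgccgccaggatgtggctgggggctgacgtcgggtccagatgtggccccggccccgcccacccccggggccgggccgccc
The MEF2 consensus lay 120 to 111 bases upstream of the start of KLF2, and 2.8% of 35116 RefSeq promoter windows of 250 bases held it. The GC box (CCGCCC, in 42.6% of all windows), letters of the kind that KLF proteins bind, was in the KLF2, KLF4, KLF6 and KLF13 windows and not in that of KLF9. The shorter CACCC element, in 54.7% of all windows, was in the KLF13 window, where it overlaps a GC box by 1 base. The CCAAT letters, in 32% of all windows, occurred in the KLF6, KLF9 and KLF13 windows, 2 times in each. The core of a glucocorticoid response element (ACANNNTGT, in 4.61% of all windows) and the receptor's hexamer (AGAACA, in 12.4%), searched on both strands like all motifs here, matched none of the 5 windows, nor did the TATA box (TATAAA, in 10.7%) or the CArG box (in 1.16%). Among the 8 members, the core matched a window of KLF5, 133 to 125 bases upstream. The KLF9 window was AT-rich, with 32.4% GC against 69.2% to 79.3% in the other 4. The RefSeq start of KLF4 lies inside the longer GENCODE 29 gene. A match is a description of letters, not of a bound site, and a missing match says nothing of sites outside these windows.

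In untreated cells, members were compared per kilobase of exon, although the features counted are not given in the sources used here and nascent reads also fall in introns. KLF2 was highest at 17.6 ± 0.0405 CPM per kb (SD, n = 2) and stood apart from the rest. KLF5 (10.0 ± 1.86), KLF15 (9.76 ± 0.499) and KLF6 (9.74 ± 0.477 CPM per kb) followed, with overlapping libraries. KLF4 (5.42 ± 0.480) and KLF10 (5.22 ± 0.197 CPM per kb) also overlapped. KLF11, KLF13, KLF9 and KLF3 were lowest, from 2.16 ± 0.386 down to 1.33 ± 0.0453 CPM per kb. Per kilobase of whole gene, KLF2 (11.6 ± 0.0267) and KLF6 (6.44 ± 0.315) led, followed by KLF4 (3.52 ± 0.312) and KLF10 (2.94 ± 0.111). KLF15 (1.88 ± 0.0960) and KLF5 (1.72 ± 0.320 CPM per kb) came after them, so the order depends on the length used. KLF2 is the shortest member by both lengths (2.018 kb of exon, 3.058 kb of gene). Without division by length, KLF6 (59.8 ± 2.93) and KLF5 (38.9 ± 7.22) had higher means than KLF2 (35.4 ± 0.0817 CPM). Over the 15 groups, the mean level of KLF6 varied 5.88-fold, that of KLF9 5.82-fold and that of KLF2 4.43-fold. KLF5 varied least, 1.65-fold, followed by KLF3, 1.76-fold. When the 15 groups were ordered by mean, 8 of 14 neighbouring pairs had libraries that did not overlap for KLF6, against none for KLF3. The order came from these same values and the share over all genes was not computed, so these counts only describe the 2 genes.

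**Figure D1:**
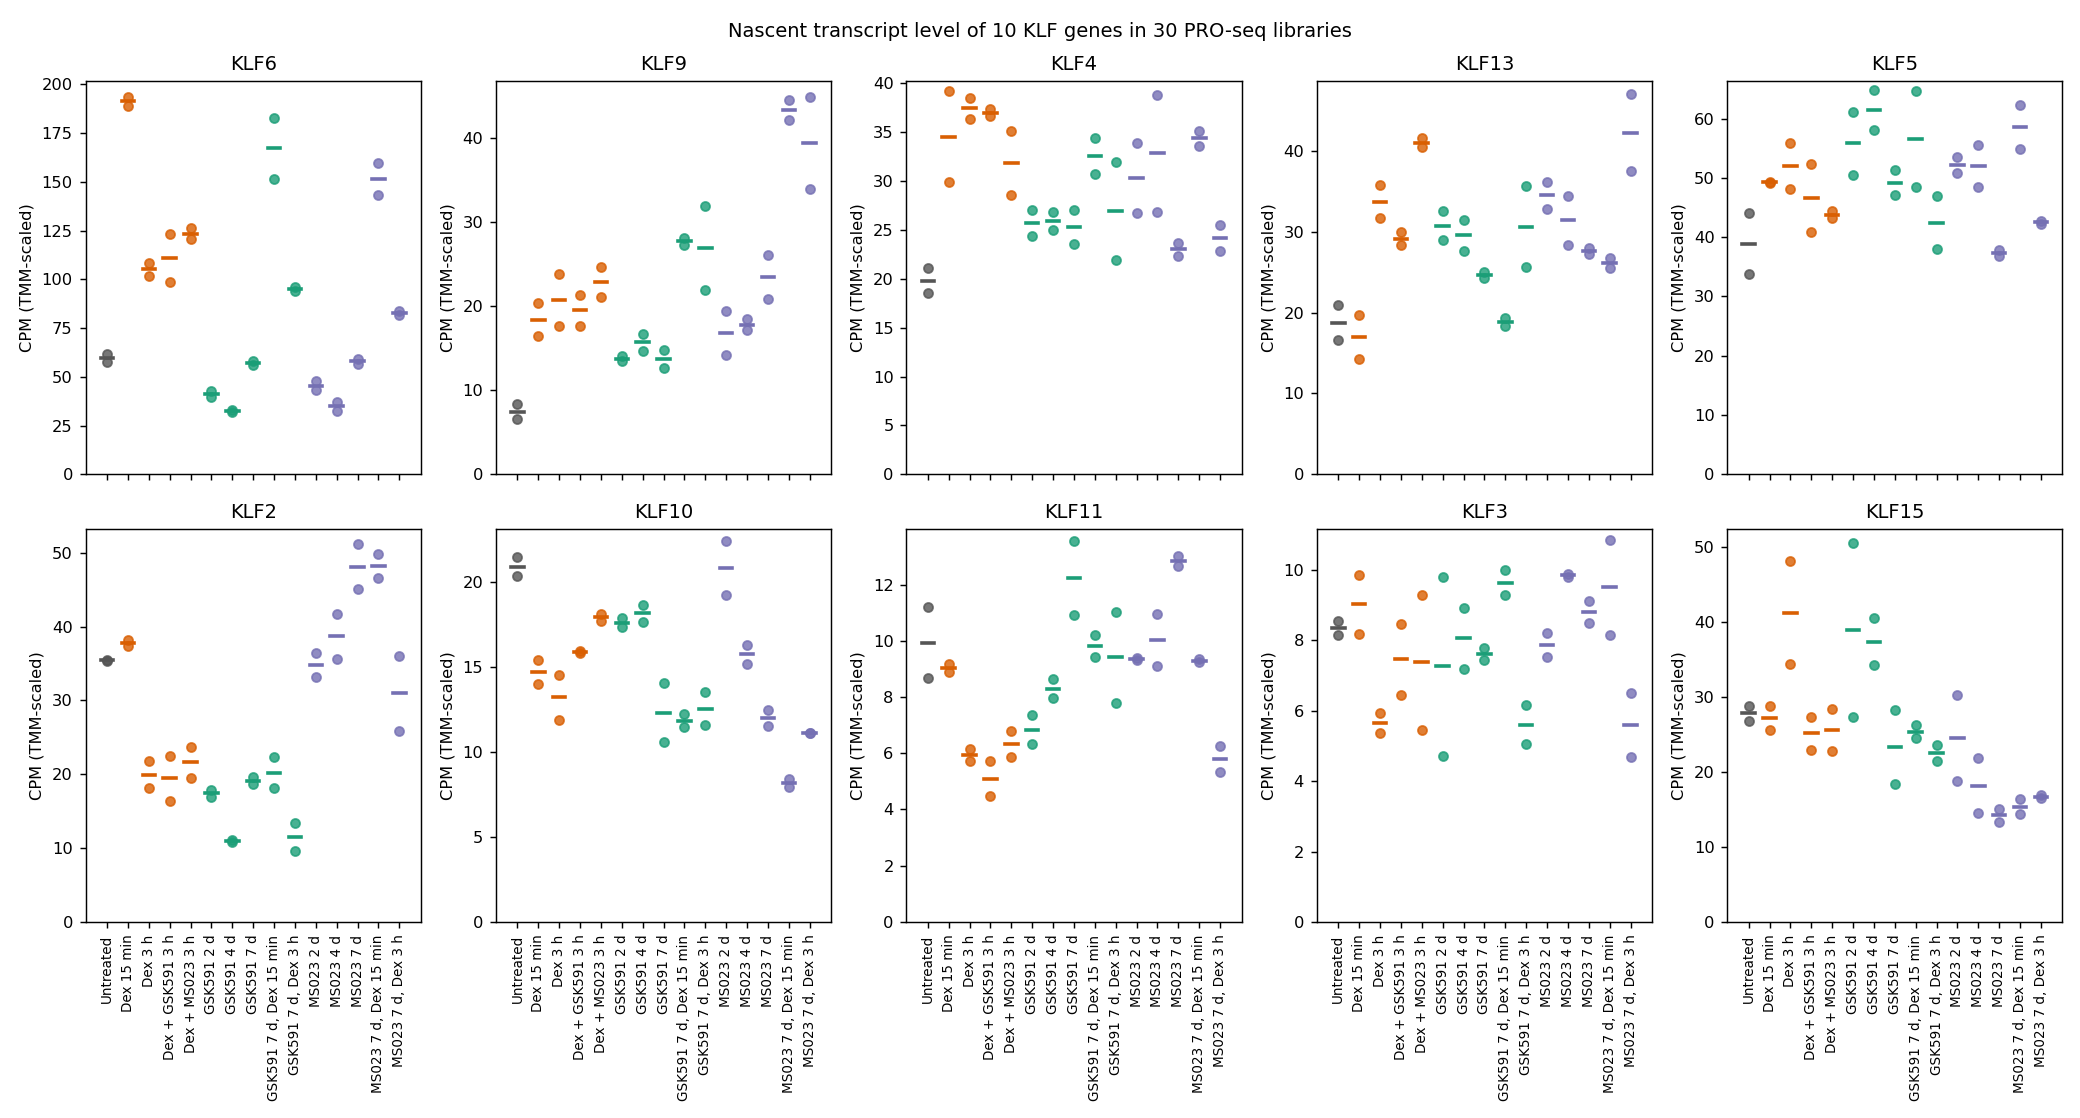
Level of each of the 10 KLF genes in TMM-scaled CPM (vertical axis, linear, from 0) in the 15 groups (horizontal axis). Points are single libraries, 2 per group, and bars are their mean; grey is untreated, orange Dex without prior inhibitor, green GSK591 groups and purple MS023 groups. KLF6 peaks in the groups with 15 min of Dex, and KLF9 is lowest in untreated cells.

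Differences between groups were tested with edgeR's quasi-likelihood test and Benjamini-Hochberg adjustment over 22919 genes, and a gene is called higher or lower at an adjusted p below 0.05. Fold changes are log2 values ± SE. Because the members were chosen with earlier results known, the share of them called only describes these 10. After 15 min of Dex, KLF6, KLF9 and KLF4 rose and no member was called lower, so 3 of 10 members were called, against 1.26% of all genes tested. KLF6 (chromosome 10, 3775996 to 3785281, minus strand), a widely expressed factor of the injury response, was at 57.7 and 61.9 CPM untreated and at 194 and 189 CPM after 15 min. The groups did not overlap, and the difference was 1.68 ± 0.11 (edgeR adjusted p = 1.14e-16). KLF9 (chromosome 9, 70384597 to 70414624, minus strand), a repressor known as a glucocorticoid target, was at 8.34 and 6.55 CPM untreated and at 20.3 and 16.5 CPM after 15 min, a rise of 1.31 ± 0.21 (edgeR adjusted p = 0.000352). Every Dex library of KLF9 was above every untreated one. KLF4 (chromosome 9, 107484852 to 107490482, minus strand), a factor of epithelial differentiation, went from 18.6 and 21.1 CPM to 39.2 and 29.9 CPM, or 0.80 ± 0.17 (edgeR adjusted p = 0.00788). This call of KLF4 was lost without Untreated replicate 1 (0.71, edgeR adjusted p = 0.221) or without Dex 15 min replicate 1 (0.59, edgeR adjusted p = 0.264). No lower call was made by edgeR or by DESeq2, which called 3 members in all, and 5 members had an unadjusted p below 0.05. The KLF10 difference of -0.51 ± 0.14 (edgeR adjusted p = 0.0617) and the KLF5 difference of 0.34 ± 0.14 (edgeR adjusted p = 0.424) missed the threshold.

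After 3 h of Dex, 8 of 10 members were called, 5 higher and 3 lower, against 10.5% of all genes tested (6.11% higher, 4.41% lower). The members' median was 0.49 and the median of all genes -0.01. KLF9 was at 17.6 and 23.8 CPM, 1.48 ± 0.21 above untreated (edgeR adjusted p = 1.07e-05). KLF4 was at 38.5 and 36.4 CPM, 0.92 ± 0.17 above untreated (edgeR adjusted p = 0.000314). KLF6 was at 109 and 102 CPM, 0.82 ± 0.11 above untreated (edgeR adjusted p = 1.08e-07). All libraries of these 3 genes lay above the untreated ones. KLF13 (chromosome 15, 31326855 to 31435665, plus strand), an activator of CCL5 in T cells and a SIN3A partner, was at 16.6 and 21.0 CPM untreated, at 19.6 and 14.3 CPM after 15 min and at 31.7 and 35.8 CPM after 3 h. Its 15 min libraries overlapped the untreated ones, and its 3 h libraries were 0.84 ± 0.15 above them (edgeR adjusted p = 4.58e-05). KLF5 (chromosome 13, 73054976 to 73077542, plus strand), which drives proliferation of epithelial progenitors, rose by 0.41 ± 0.14 (edgeR adjusted p = 0.0440). Its 3 h libraries (48.0 and 55.9 CPM) were above both untreated ones (33.8 and 44.0 CPM). The KLF5 call was lost without Untreated replicate 1 (0.24) or Dex 3 h replicate 2 (0.30), and with DESeq2 (0.42, adjusted p = 0.0992).

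The 3 members that fell at 3 h were KLF2, KLF10 and KLF11. KLF2 (chromosome 19, 16324817 to 16327874, plus strand), known for endothelial quiescence and lung development, was at 35.5 and 35.4 CPM untreated, at 37.4 and 38.2 CPM after 15 min and at 18.2 and 21.7 CPM after 3 h. The fall of -0.83 ± 0.15 (edgeR adjusted p = 0.000105) came after 15 min, since the 2 early libraries were not below the untreated ones. KLF10 (chromosome 8, 102648779 to 102655902, minus strand) was at 21.5 and 20.4 CPM untreated, at 15.4 and 14.0 CPM after 15 min and at 11.9 and 14.5 CPM after 3 h, a fall of -0.67 ± 0.15 (edgeR adjusted p = 0.00111). Without Dex 3 h replicate 1 the KLF10 fall was -0.52 (edgeR adjusted p = 0.0662). KLF11 (chromosome 2, 10042849 to 10054836, plus strand) went from 8.68 and 11.2 CPM to 6.17 and 5.74 CPM, or -0.74 ± 0.20 (edgeR adjusted p = 0.0105). The KLF11 call was lost without Untreated replicate 2 (-0.54) or either of the 3 h libraries (-0.79 and -0.69). Of the exonic bases of KLF11, 9.07% also lie in an antisense gene, and of those of KLF3, 4.22%, so reads of the 2 strands may be mixed. With total counts as the only scaling, which puts the median of all genes at 0.15, these 3 genes kept their direction and were not called (-0.65, -0.49 and -0.59).

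KLF3 (chromosome 4, 38664196 to 38701042, plus strand) was at 8.56 and 8.16 CPM untreated and at 5.95 and 5.37 CPM after 3 h of Dex. Its libraries did not overlap, and the difference of -0.56 ± 0.25 missed the threshold (edgeR adjusted p = 0.164). KLF15 (chromosome 3, 126342635 to 126357442, minus strand), a regulator of amino acid breakdown, was at 26.8 and 28.8 CPM untreated and at 34.3 and 48.1 CPM after 3 h. Its difference of 0.56 ± 0.28 also missed the threshold (edgeR adjusted p = 0.256), while a fit of only these 2 groups called it (0.57, edgeR adjusted p = 0.00511).

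Between 15 min and 3 h of Dex, 4 of 10 members were called, against 10.8% of all genes tested. KLF6 was lower at 3 h than at 15 min by a log2 value of -0.86 ± 0.11 (edgeR adjusted p = 2.54e-08), so its level at 15 min was the higher of the 2. KLF2 was lower at 3 h by -0.92 ± 0.15 (edgeR adjusted p = 2.25e-05) and KLF13 higher by 0.99 ± 0.15 (edgeR adjusted p = 3.77e-06). KLF9 differed by 0.16 ± 0.19 and KLF4 by 0.12 ± 0.16 between the 2 times, both short of the threshold (edgeR adjusted p = 0.658 and 0.724). KLF11 was lower at 3 h by -0.60 ± 0.20 (edgeR adjusted p = 0.0473). That call was lost without any 1 of the 4 libraries, with DESeq2, with total counts alone, without a filter and with only the groups compared (adjusted p = 0.0709 to 0.215 over these fits).

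**Figure D2:**
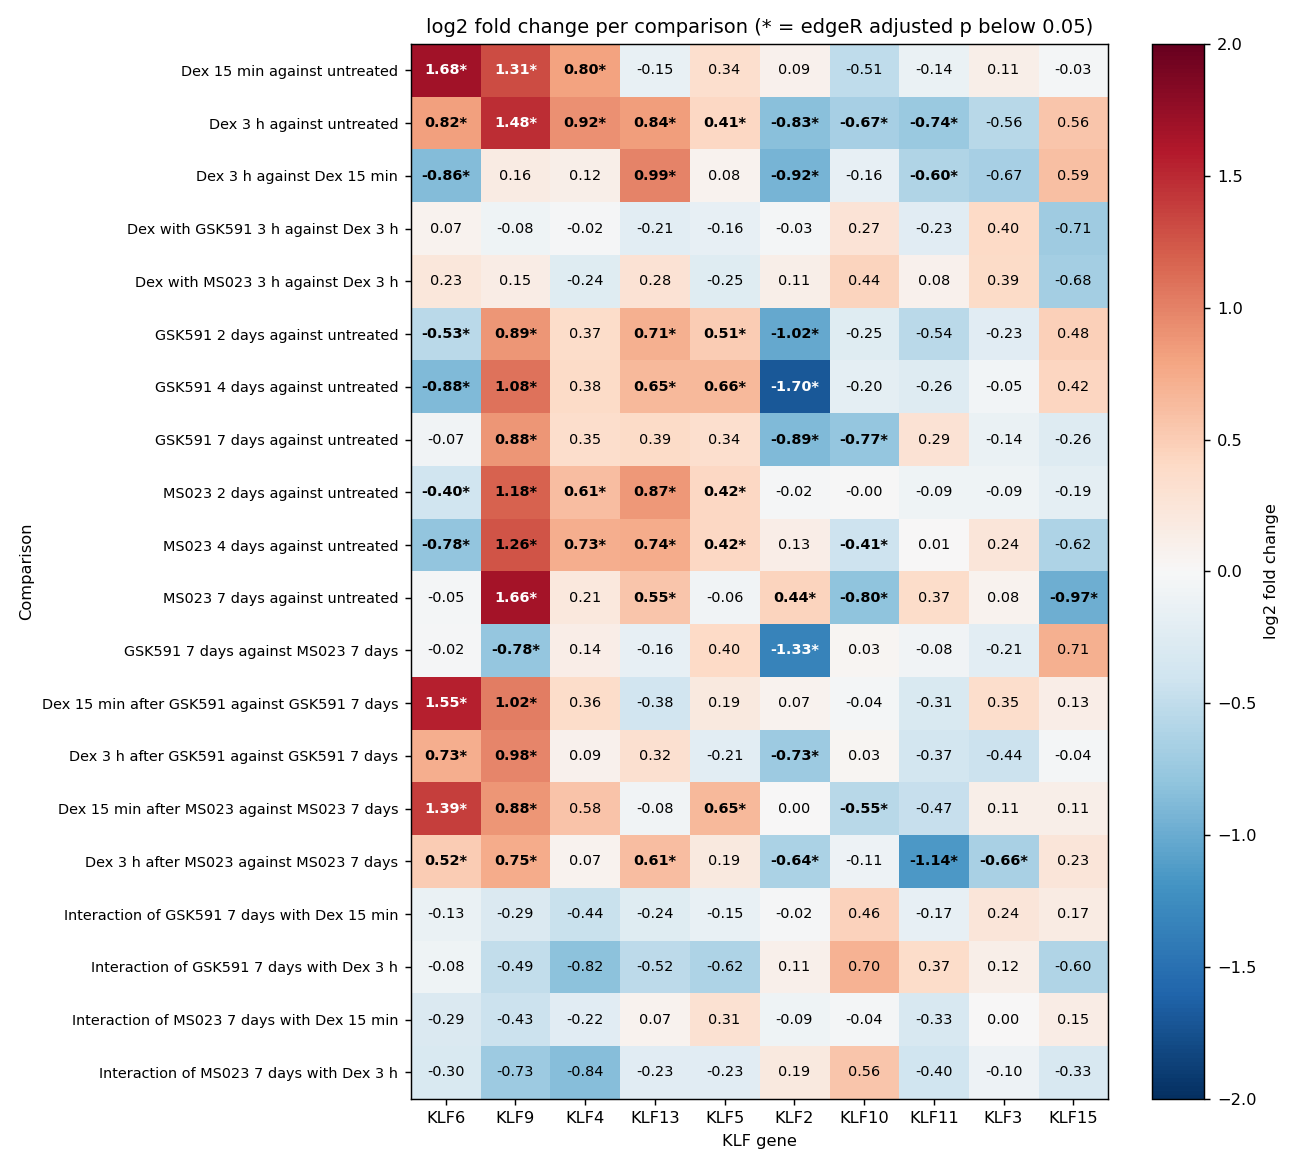
Log2 fold change of each KLF gene (columns) in the 20 comparisons (rows), red for higher and blue for lower, with the value printed in each cell and a star where the edgeR adjusted p was below 0.05. KLF9 carries a positive star in all 6 inhibitor rows and both Dex rows against untreated cells, and no star appears in the 4 interaction rows.

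Adding an inhibitor together with Dex for 3 h gave no called member. For GSK591 with Dex against Dex alone, edgeR and DESeq2 each called 0 members, 1 member had an unadjusted p below 0.05, and 0% of all genes were called. Only KLF15 was past that unadjusted level: it was at 22.9 and 27.4 CPM against 34.3 and 48.1 CPM with Dex alone, a difference of -0.71 ± 0.28 (edgeR adjusted p = 0.845). A fit of these 2 groups only called it (-0.71, edgeR adjusted p = 0.0288). For MS023 with Dex against Dex alone, edgeR and DESeq2 each called 0 members, 4 had an unadjusted p below 0.05, and 0.196% of all genes were called. The values of those 4 were 0.23 ± 0.11 for KLF6, 0.44 ± 0.15 for KLF10, 0.28 ± 0.14 for KLF13 and -0.68 ± 0.28 for KLF15. The 2 libraries of MS023 with Dex were the least alike of the 15 groups (Pearson r of log2 CPM = 0.923, range 0.923 to 0.983). Their mitochondrial shares of counts were 71.2% and 61.0%.

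With prolonged GSK591, KLF2 and KLF6 were lower and KLF9, KLF13 and KLF5 higher than in untreated cells at 2 and 4 days. At each of these times 5 of 10 members were called, 3 higher and 2 lower. All genes were called at 5.64% at 2 days (3.19% higher, 2.45% lower) and at 17.2% at 4 days (8.91% higher, 8.28% lower). KLF2 was at 16.9 and 17.9 CPM after 2 days, at 10.8 and 11.0 CPM after 4 days and at 18.7 and 19.6 CPM after 7 days. Against untreated cells the differences were -1.02 ± 0.16, -1.70 ± 0.16 and -0.89 ± 0.15 (edgeR adjusted p = 5.37e-05, 1.31e-10 and 5.34e-05). All 6 treated libraries of KLF2 lay below both untreated ones, and the 4-day pair was the lowest. With total counts alone the 2-day value of KLF2 was -0.73 (edgeR adjusted p = 0.0501).

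KLF6 was at 42.9 and 39.9 CPM after 2 days of GSK591, at 32.0 and 33.1 CPM after 4 days and at 58.0 and 56.3 CPM after 7 days. It fell by -0.53 ± 0.11 at 2 days and by -0.88 ± 0.11 at 4 days (edgeR adjusted p = 0.00216 and 8.09e-08). At 7 days its difference of -0.07 ± 0.11 missed the threshold (edgeR adjusted p = 0.766), and 1 library lay above an untreated one. The 2-day call was lost without GSK591 2 days replicate 2 (-0.48, edgeR adjusted p = 0.0725). With total counts alone, which puts the median of all genes at 0.29 and 0.42, KLF6 was not called (-0.25 and -0.46).

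KLF9 was at 13.4 and 14.0, 14.7 and 16.7, and 12.7 and 14.7 CPM after 2, 4 and 7 days of GSK591, above the untreated libraries each time. It rose by 0.89 ± 0.23, 1.08 ± 0.22 and 0.88 ± 0.23 (edgeR adjusted p = 0.0175, 0.000627 and 0.00847). Only the 4-day call of KLF9 held with each library left out. The 2-day call was lost without Untreated replicate 2 (0.72) or either treated library (0.92 and 0.86), and the 7-day call without Untreated replicate 2 (0.71) or GSK591 7 days replicate 2 (0.77), or with total counts alone (0.85). KLF13 rose by 0.71 ± 0.15 at 2 days and 0.65 ± 0.15 at 4 days (edgeR adjusted p = 0.00238 and 0.00113). Both KLF13 calls were lost without Untreated replicate 1 (0.55 and 0.50), and the 2-day call also without GSK591 2 days replicate 1 (0.62). KLF5 rose by 0.51 ± 0.14 at 2 days and by 0.66 ± 0.14 at 4 days (edgeR adjusted p = 0.0185 and 0.000462). The 2-day call of KLF5 was lost without Untreated replicate 1 (0.34) or GSK591 2 days replicate 1 (0.38).

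At 7 days of GSK591, 3 of 10 members were called, against 13.2% of all genes: KLF9 higher, and KLF2 and KLF10 lower. KLF10, at 17.9 and 17.4 CPM at 2 days and 17.7 and 18.7 CPM at 4 days, was at 10.6 and 14.1 CPM at 7 days. The 7-day difference of KLF10 was -0.77 ± 0.15 (edgeR adjusted p = 0.000226), and those at 2 and 4 days (-0.25 ± 0.14 and -0.20 ± 0.14) missed the threshold. A fit of only the 2 groups called 6 members at 7 days, adding KLF4 (0.37), KLF5 (0.35) and KLF13 (0.41), and 21.4% of all genes it tested.

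With MS023, KLF9 and KLF13 were higher than in untreated cells at each of the 3 times. KLF6 was lower at 2 and 4 days and KLF10 at 4 and 7 days. At 2 days, 5 of 10 members were called against 10.4% of all genes, at 4 days 6 against 14.2%, and at 7 days 5 against 13.6%. KLF9 was at 14.2 and 19.4 CPM after 2 days, at 18.5 and 17.2 CPM after 4 days and at 20.8 and 26.1 CPM after 7 days. Its rises were 1.18 ± 0.21, 1.26 ± 0.21 and 1.66 ± 0.20 (edgeR adjusted p = 0.000423, 7.70e-05 and 1.25e-06), and all 3 calls held with each library left out. No treated library of KLF9 overlapped the untreated pair.

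KLF13 was at 36.2 and 32.9, 28.4 and 34.5, and 28.0 and 27.2 CPM after 2, 4 and 7 days of MS023. It rose by 0.87 ± 0.15, 0.74 ± 0.14 and 0.55 ± 0.15 (edgeR adjusted p = 3.41e-05, 0.000231 and 0.00681), and all 6 libraries were above the untreated ones. The 7-day call of KLF13 was lost without Untreated replicate 1 (0.40) or MS023 7 days replicate 1 (0.53). KLF4 rose by 0.61 ± 0.17 at 2 days and by 0.73 ± 0.17 at 4 days (edgeR adjusted p = 0.0188 and 0.00297). At 4 days its 2 libraries were far apart, at 26.9 and 38.8 CPM, and without the second the difference was 0.44 (edgeR adjusted p = 0.129). The 4-day call was also lost without Untreated replicate 1 (0.64), and the 2-day call without MS023 2 days replicate 2 (0.43) or either untreated library (0.53 and 0.71). KLF5 rose by 0.42 ± 0.14 at 2 days and 0.42 ± 0.13 at 4 days (edgeR adjusted p = 0.0401 and 0.0301). DESeq2 called neither rise of KLF5 (adjusted p = 0.0915 and 0.0719). Without Untreated replicate 1, KLF5 was at 0.24 both times and not called, nor without MS023 2 days replicate 1 (0.46) or 2 (0.38) or MS023 4 days replicate 2 (0.32).

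KLF6 was at 47.6 and 43.3 CPM after 2 days of MS023, at 32.5 and 37.0 CPM after 4 days and at 56.7 and 59.2 CPM after 7 days. It fell by -0.40 ± 0.11 at 2 days (edgeR adjusted p = 0.0138), a direction that turned with total counts alone (0.28), and by -0.78 ± 0.11 at 4 days (edgeR adjusted p = 7.37e-07), where total counts alone gave -0.04. That scaling puts the median of all genes at 0.68, 0.74 and 1.02 for 2, 4 and 7 days of MS023. The mitochondrial share of counts moved with this: the untreated libraries had 76.0% and 73.4%, against 62.2% and 65.0% (MS023 for 2 days), 64.9% and 66.1% (4 days), and 58.7% and 59.6% (7 days). Its part in the differences between scalings was not tested. Without mitochondrial and ribosomal RNA genes no call of a member was lost. The 2-day KLF6 call was also lost without Untreated replicate 2 (-0.35) or MS023 2 days replicate 2 (-0.33). At 7 days KLF6 differed by -0.05 ± 0.11 (edgeR adjusted p = 0.828) and its libraries overlapped the untreated ones.

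KLF10 was at 15.2 and 16.3 CPM after 4 days of MS023 and at 12.5 and 11.5 CPM after 7 days. It fell by -0.41 ± 0.14 and by -0.80 ± 0.14 (edgeR adjusted p = 0.0379 and 5.13e-05), and both directions turned with total counts alone (0.34 and 0.22). The 4-day call of KLF10 was lost without any 1 of the 4 libraries (-0.36 to -0.46), with DESeq2 and without the filter on low counts. KLF15 was at 13.3 and 15.1 CPM after 7 days, below the untreated pair. Its fall of -0.97 ± 0.30 (edgeR adjusted p = 0.0402) was lost without any 1 of the 4 libraries (-0.89 to -1.06) and was 0.04 with total counts alone. KLF2 was at 45.0 and 51.2 CPM after 7 days, a rise of 0.44 ± 0.14 (edgeR adjusted p = 0.0265). The KLF2 call was lost with DESeq2 (0.46, adjusted p = 0.0830) and without either untreated library (0.44 both times) or MS023 7 days replicate 2 (0.35).

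The 2 inhibitors were compared directly at 7 days, where 2 of 10 members were called against 9.38% of all genes. KLF2 was lower with GSK591 (18.7 and 19.6 CPM) than with MS023 (45.0 and 51.2 CPM), a difference of -1.33 ± 0.15 (edgeR adjusted p = 1.56e-08) that held with each library left out. KLF9 was lower with GSK591 (12.7 and 14.7 CPM) than with MS023 (20.8 and 26.1 CPM), by -0.78 ± 0.19 (edgeR adjusted p = 0.00779). In both genes the 2 groups did not overlap. The KLF9 call was lost without GSK591 7 days replicate 1 (-0.67, edgeR adjusted p = 0.134) or MS023 7 days replicate 2 (-0.60, edgeR adjusted p = 0.121). KLF5 differed by 0.40 ± 0.14 (edgeR adjusted p = 0.0551) and KLF15 by 0.71 ± 0.31 (edgeR adjusted p = 0.184), both short of the threshold. A fit of only these 2 groups called both, and 15.1% of all genes it tested.

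Dex was also given after 7 days of each inhibitor, and each response was set against cells with that inhibitor alone. After 15 min, 2 of 10 members were called in GSK591-treated cells (2.09% of all genes) and 4 of 10 in MS023-treated cells (2.07%). KLF6 rose in both, from 58.0 and 56.3 to 183 and 152 CPM with GSK591 and from 56.7 and 59.2 to 143 and 160 CPM with MS023. The rises of KLF6 were 1.55 ± 0.11 and 1.39 ± 0.11 (edgeR adjusted p = 3.46e-15 and 5.29e-14). KLF9 rose by 1.02 ± 0.20 with GSK591, to 27.3 and 28.1 CPM, and by 0.88 ± 0.17 with MS023, to 44.6 and 42.1 CPM (edgeR adjusted p = 0.00283 and 0.00188). The latter pair was the highest group mean of KLF9 in the series. The KLF9 calls were lost without GSK591 7 days replicate 1 (0.91) or GSK591 7 days with Dex 15 min replicate 2 (1.00), and without MS023 7 days replicate 1 (0.74). In MS023-treated cells KLF5 rose by 0.65 ± 0.13 (edgeR adjusted p = 0.00235), a call lost without MS023 7 days replicate 1 (0.64) or MS023 7 days with Dex 15 min replicate 2 (0.55). There KLF10 fell by -0.55 ± 0.15 (edgeR adjusted p = 0.0367), a call lost without any 1 of the 4 libraries (-0.48 to -0.60) and with DESeq2. KLF4 was at 34.4 and 30.7 CPM with GSK591 and at 33.6 and 35.1 CPM with MS023, above both inhibitor-only libraries each time. Its differences of 0.36 ± 0.17 and 0.58 ± 0.16 missed the threshold (edgeR adjusted p = 0.348 and 0.0527). The second was called with DESeq2's size factors in edgeR (adjusted p = 0.0432), without mitochondrial and ribosomal RNA genes (adjusted p = 0.0443), without a filter (adjusted p = 0.00950) and with only the groups compared (adjusted p = 0.000176). The other 7 members lay between -0.38 (KLF13) and 0.35 (KLF3) with GSK591, and the other 5 between -0.47 (KLF11) and 0.11 (KLF3) with MS023, none of them called. With total counts alone, KLF6 was the 1 member called in MS023-treated cells, with KLF9 at 0.75, KLF5 at 0.50 and KLF10 at -0.70.

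After 3 h of Dex, 3 of 10 members were called in GSK591-treated cells (9.85% of all genes) and 6 of 10 in MS023-treated cells (11.1%). KLF6 was at 95.9 and 94.2 CPM with GSK591 and at 81.7 and 83.8 CPM with MS023, rises of 0.73 ± 0.11 and 0.52 ± 0.11 (edgeR adjusted p = 1.49e-06 and 0.000373). KLF9 was at 32.0 and 21.9 CPM and at 34.0 and 44.9 CPM, rises of 0.98 ± 0.20 and 0.75 ± 0.17 (edgeR adjusted p = 0.000830 and 0.00225). KLF2 was at 13.5 and 9.63 CPM and at 25.9 and 36.0 CPM, falls of -0.73 ± 0.17 and -0.64 ± 0.14 (edgeR adjusted p = 0.00352 and 0.000816). In these 3 genes no Dex library overlapped the inhibitor-only pair. The other 7 members in GSK591-treated cells lay between -0.44 (KLF3) and 0.32 (KLF13), none of them called. The KLF2 calls were lost without GSK591 7 days with Dex 3 h replicate 2 (-0.51) or MS023 7 days with Dex 3 h replicate 1 (-0.41), and the KLF9 call in MS023 cells without MS023 7 days replicate 1 (0.60) or MS023 7 days with Dex 3 h replicate 2 (0.54).

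KLF11 fell after 3 h of Dex in MS023-treated cells, from 13.0 and 12.7 to 5.35 and 6.27 CPM, by -1.14 ± 0.18 (edgeR adjusted p = 3.75e-06). This KLF11 call held with each library left out, and the groups did not overlap. KLF13 rose there by 0.61 ± 0.13, to 37.5 and 47.0 CPM (edgeR adjusted p = 0.000843), and without MS023 7 days with Dex 3 h replicate 2 by 0.45 (edgeR adjusted p = 0.0757). KLF3 fell by -0.66 ± 0.22 (edgeR adjusted p = 0.0493), a call lost without either MS023 7 days library (-0.70 and -0.60) or MS023 7 days with Dex 3 h replicate 1 (-0.43), with DESeq2 and with DESeq2's size factors. With total counts alone, KLF11 was the 1 member called in MS023-treated cells at 3 h, and KLF2, KLF3, KLF6, KLF9 and KLF13 kept their direction (-0.64, -0.66, 0.51, 0.74 and 0.61). In GSK591-treated cells that scaling ended the call of KLF2 (-0.50).

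Whether an inhibitor changed a Dex response was tested by the interaction, the response after the inhibitor minus that without it. Each of the 4 interactions gave 0 called members with edgeR and 0 with DESeq2, against 0.00436% of all genes at 15 min and 0.223% at 3 h for both inhibitors. At an unadjusted p below 0.05 there were 1 and 4 members for GSK591 at 15 min and 3 h, and 0 and 3 for MS023. KLF4 had the widest 3 h gap among the members: Dex for 3 h changed it by 0.92 ± 0.17 without inhibitor, by 0.09 ± 0.17 after GSK591 and by 0.07 ± 0.16 after MS023. Its level went from 23.6 and 27.1 to 32.0 and 21.9 CPM with GSK591 and from 23.7 and 22.4 to 22.8 and 25.5 CPM with MS023, overlapping in both. The interactions of KLF4 were -0.82 ± 0.24 (edgeR adjusted p = 0.192) and -0.84 ± 0.24 (edgeR adjusted p = 0.147).

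Both KLF4 interactions were past the threshold when no filter on low counts was used (edgeR adjusted p = 0.0212 and 0.00754) and when only the groups compared were fitted (-0.84 and -0.86, edgeR adjusted p = 0.0417 and 0.0120). The GSK591 interaction of KLF4 was also called without GSK591 7 days with Dex 3 h replicate 1 (-1.12, edgeR adjusted p = 0.0180). For KLF10, the Dex response at 3 h was -0.67 ± 0.15 without inhibitor, 0.03 ± 0.16 after GSK591 and -0.11 ± 0.14 after MS023, with interactions of 0.70 ± 0.22 and 0.56 ± 0.21 (edgeR adjusted p = 0.195 and 0.323). KLF5 had an interaction of -0.62 ± 0.19 with GSK591 (edgeR adjusted p = 0.202) and KLF9 one of -0.73 ± 0.27 with MS023 (edgeR adjusted p = 0.358). KLF6, by contrast, had 3 h interactions of -0.08 ± 0.15 and -0.30 ± 0.15 (edgeR adjusted p = 0.942 and 0.559).

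**Figure D3:**
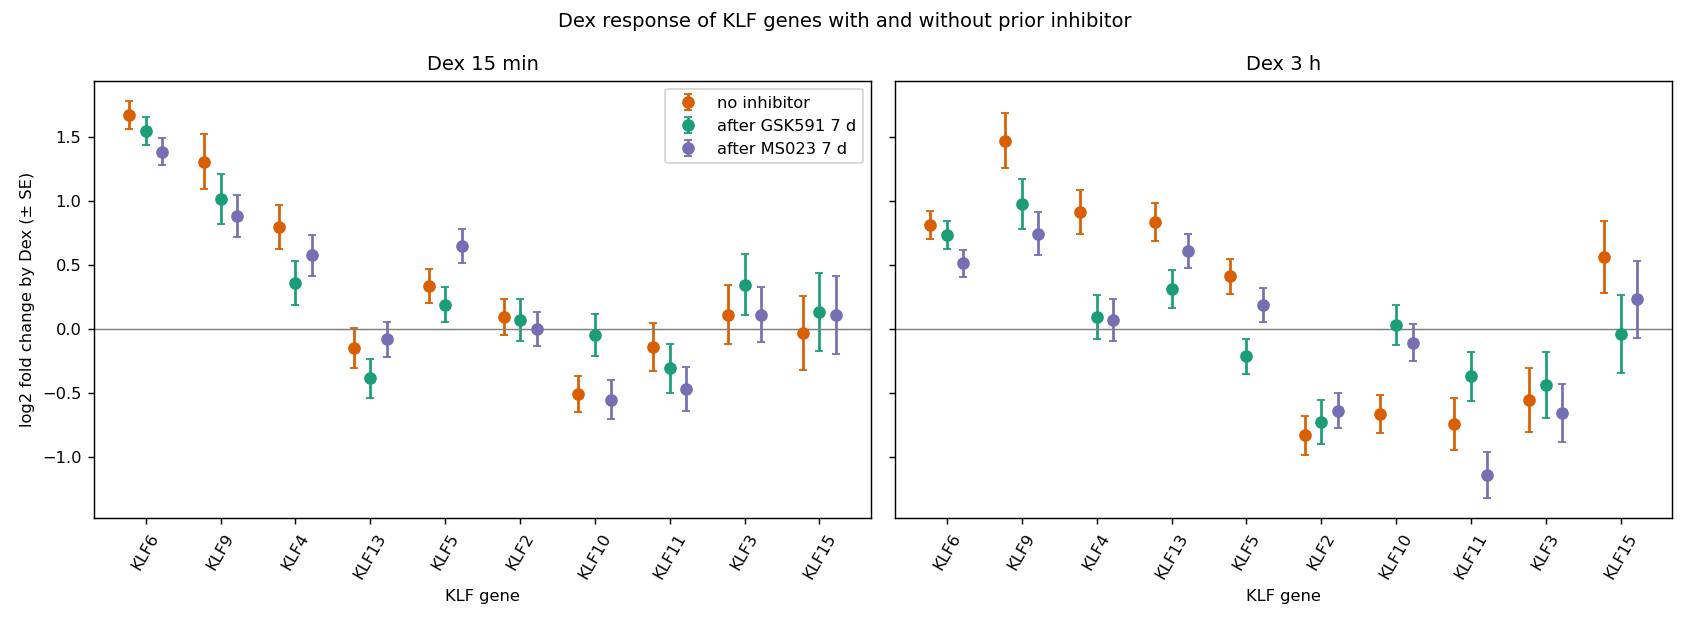
Log2 fold change by Dex (vertical axis, ± SE) for each KLF gene after 15 min (left) and 3 h (right), in cells without inhibitor (orange), after 7 days of GSK591 (green) and after 7 days of MS023 (purple). At 3 h KLF4 stands at 0.92 without inhibitor and at 0.09 and 0.07 after the inhibitors, a difference whose adjusted p was 0.192 and 0.147.

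The study's own comparisons with untreated cells allowed a second reading, for 9 members in 8 comparisons. They rest on the same study and not on new samples, so shared calls are not independent evidence. KLF11 is not compared here. Of 72 pairs of gene and comparison, 35 passed an adjusted p of 0.05 both in the authors' deposited table and in the count table, all 35 in the same direction, and 29 passed in neither. The authors' deposited tables alone called 4 (KLF5 at 15 min of Dex, KLF15 at 3 h of Dex, KLF5 at 7 days of GSK591 and KLF3 at 4 days of MS023). The count table alone called 4 (KLF5 at 3 h of Dex, and KLF10 at 4 days, KLF2 at 7 days and KLF15 at 7 days of MS023). Among all genes with an adjusted p, the authors' deposited table called 3.93% at 15 min of Dex and 21.9% at 3 h. For 2, 4 and 7 days it was 14.7%, 26.8% and 23.8% with GSK591 and 17.7%, 22.5% and 22.0% with MS023 in the authors' deposited tables.

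KLF15 was the member on which the sources differed most. Its log2 fold change at 3 h of Dex was 5.01 (adjusted p = 4.34e-15) in the authors' deposited table and 0.56 ± 0.28 in the count table. The authors' deposited tables gave 4.96 and 4.88 for Dex with GSK591 and with MS023, and 4.12 and 5.29 for 3 h of Dex after 7 days of GSK591 and of MS023. At 15 min of Dex the authors' deposited table gave 0.04 (adjusted p = 0.710). The fall of KLF15 at 7 days of MS023 in the count table (-0.97) was absent there, at 0.16 (adjusted p = 0.454). At 4 days of MS023 the values were -0.62 in the count table and 0.02 in the authors' deposited table, called in neither. The authors' deposited base mean of KLF15 was 46.5, against a mean count of 254.3 in the count table, a ratio of 0.183, the lowest of the 9 members. That ratio was 5.04 for KLF3, the highest. KLF4 also differed between the sources. At 15 min and 3 h of Dex the authors' deposited tables gave 1.44 and 1.45, against 0.80 and 0.92 in the count table. At 2 and 4 days of GSK591 they gave 0.04 and -0.11, against 0.37 and 0.38, called in neither source. What these differences rest on was not tested.

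**Figure D4:**
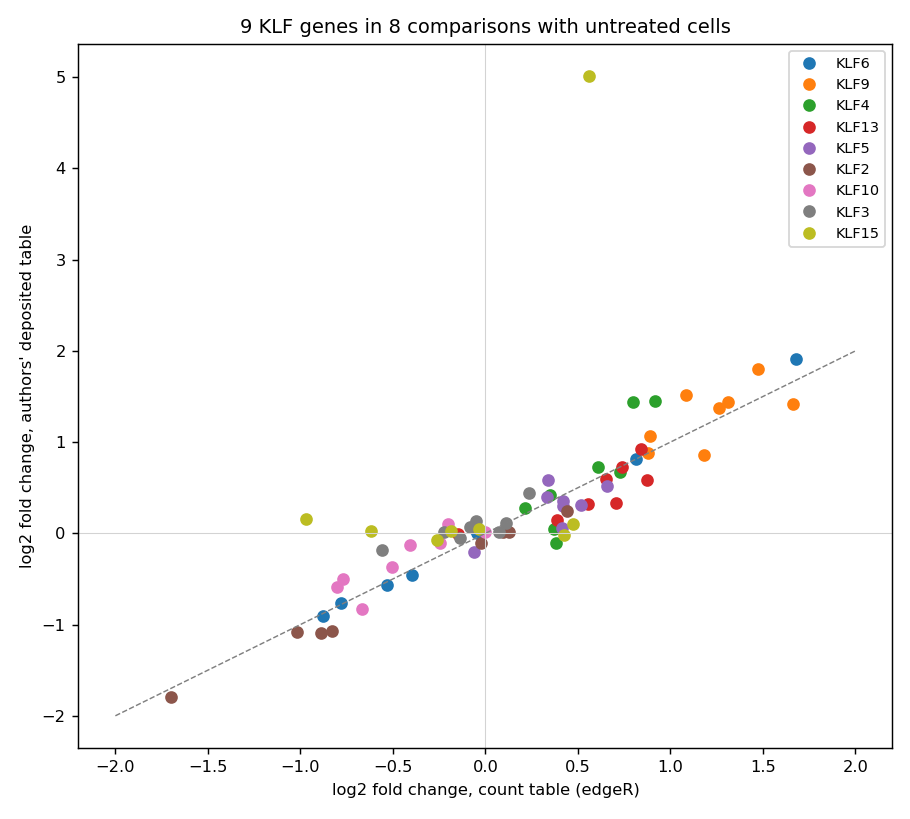
Log2 fold change from the count table (horizontal axis, edgeR) against that in the authors' deposited tables (vertical axis) for 9 KLF genes in 8 comparisons with untreated cells, 72 points, coloured by gene. The dashed line marks equal values, and the single point far above it is KLF15 at 3 h of Dex, at 0.56 and 5.01.

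The genes whose log2 CPM followed a member most closely over the 30 libraries were taken from 9618 protein-coding genes whose average was 5 CPM or more. This is a description, since the libraries share treatments and depth. For KLF6 they included POU5F1 (Pearson r = 0.898), which has many pseudogene copies, and the row of MCL1 and ADAMTSL4-AS1 (r = 0.896). For KLF9 they were CPEB4 (r = 0.885), CEBPD, a C/EBP factor (r = 0.884), and SPIDR (r = 0.875). For KLF2 they were ZNF544 (r = 0.938), RPL30 (r = 0.876) and ZNF121 (r = 0.862). The closest gene was RCOR1 for KLF13 (r = 0.866), SLCO3A1 for KLF11 (r = 0.846), PKM for KLF10 (r = 0.809) and PAQR5 for KLF15 (r = 0.806). For KLF5, KLF3 and KLF4 the closest had r = 0.740 (UGCG), 0.718 (FYCO1) and 0.686 (VASP).

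Genes around the family were read from the same fit. Of 8 other KLF genes, 4 passed the filter, of which 2 were called at 4 days of MS023 (14.2% of all genes), and KLF7 was the only abundant one, at 38.2 to 67.3 CPM. KLF7 differed by -0.19 ± 0.12 at 3 h of Dex and fell by -0.39 ± 0.12 at 4 days of MS023 (edgeR adjusted p = 0.0163), while KLF1 rose by 1.60 ± 0.28 there (edgeR adjusted p = 4.40e-05). Of 8 tested SP genes, the nearest relatives, 2 were called at 3 h of Dex, against 10.5% of all genes: SP7 rose by 0.70 ± 0.16 and SP1 fell by -0.44 ± 0.15 (edgeR adjusted p = 0.00191 and 0.0403). SP1 was also lower at 7 days of GSK591, by -0.73 ± 0.15, and of MS023, by -0.44 ± 0.14 (edgeR adjusted p = 0.000518 and 0.0241). Of 10 corepressor and coactivator genes, 1 was called at 3 h of Dex, a share near the 10.5% of all genes, namely the deacetylase HDAC1 (-0.67 ± 0.18, edgeR adjusted p = 0.0107). Of 7 ubiquitin ligase genes, 1 was called there, also near that share, BTRC (-1.06 ± 0.28, edgeR adjusted p = 0.00777).

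Of 8 TGF-beta genes, 2 rose and 2 fell at 3 h of Dex, against 6.11% and 4.41% of all genes. The ligand TGFB2 fell from 12.9 and 14.7 to 4.15 and 4.27 CPM, by -1.71 ± 0.21 (edgeR adjusted p = 9.88e-09). The signal transducer SMAD3 fell from 90.5 and 82.5 to 38.0 and 35.8 CPM, by -1.23 ± 0.11 (edgeR adjusted p = 5.53e-12). The receptor TGFBR1 rose by 0.93 ± 0.26 and the inhibitor SMAD7 by 0.48 ± 0.13 (edgeR adjusted p = 0.0188 and 0.00756). At 7 days of GSK591, TGFB2 was instead higher, by 0.71 ± 0.17 (edgeR adjusted p = 0.00215), with TGFB1, TGFBR2 and SMAD7 at 0.50, 0.46 and -0.38, all called, so 4 of 8 against 13.2% of all genes. Of 5 genes of the MEK5-ERK5-MEF2 pathway, 1 was called at 3 h of Dex (10.5% of all genes), MAPK7, which encodes ERK5 (0.44 ± 0.13, edgeR adjusted p = 0.0174). Of 4 tested genes of amino acid breakdown, 1 was called there (10.5% of all genes), PRODH, the proline dehydrogenase. It rose from 3.11 and 3.12 to 10.6 and 10.9 CPM, by 1.78 ± 0.24 (edgeR adjusted p = 1.55e-07). The name PRODH is carried by 2 rows of the counts, and only the first was read.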

How the data were processed

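The authors deposited whole-number counts for 58780 genes in 30 libraries, not normalised. Per the submitters' processing notes, counting used featureCounts 2.0.1 of Subread with hg38. The aligner, feature type and use of strand are not given in the sources used here. All gene identifiers match GENCODE 29, which supplied positions and exon lengths. The authors also deposited 14 comparison tables, with the authors' base mean signal (average normalised count), log2 fold change, standard error, p-value and adjusted p-value, per the file headers.

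Counts were tested with edgeR 4.0.16 in R 4.3.3 (quasi-likelihood, robust, TMM, filterByExpr with minimum count 10 and total 15). One model held all 15 groups (15 residual df), and its 20 comparisons were each adjusted by Benjamini-Hochberg over 22919 genes. SE is the log2 fold change over the root of F. The 10 members were tested in every comparison. The text gives those called, and some of the others by value or range, while the plot of fold changes gives all. For other lists, called genes are named. Members, lists and markers were chosen with earlier results of these data known. Alternatives were DESeq2 1.42.0, its size factors, scaling by total counts, testing without a filter, dropping mitochondrial and ribosomal RNA genes, only the groups compared, a replicate block and leaving out each library. One count was worth 0.0706 to 0.136 CPM. No molecular identifiers are mentioned, so copies of 1 molecule cannot be told from separate molecules in the counts. SE and p-values rest on the fitted spread between libraries of a group as well as on counting error. The fit was tested on simulated data. For each member the 3 protein-coding genes with the most similar levels were sought, and 1 such gene is not reported here.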

Additional observations from a re-analysis of the deposited data

Results flagged for a closer look

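Groups of 2 libraries are too small to look for outlying samples. The contrast that set the 2 inhibitors against each other at 7 days differed for 2 members by edgeR's test of the difference itself. KLF2 was lower with GSK591 than with MS023 by a log2 value of -1.33 (edgeR adjusted p = 1.56e-08), with GSK591 below and MS023 above the untreated libraries. KLF9 was lower with GSK591 than with MS023 by -0.78 (edgeR adjusted p = 0.00779), with both above the untreated libraries.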

How the results depend on the processing

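Of 61 calls of members in 200 tests, 31 held in every fit with 1 library left out and under every alternative but total counts, and 25 of these held under total counts too. How often calls of other genes held was not tested, so these numbers describe the members only. Total counts as the only scaling moved the median of all genes by up to 1.02 (MS023 7 days) and -1.07 (GSK591 against MS023), and it gave every turned direction. These were KLF2 (0.65), KLF6 (0.28) and KLF10 (0.67) at 2 days of MS023, KLF10 (0.34) at 4 days, KLF5 (0.94), KLF6 (0.97), KLF10 (0.22) and KLF15 (0.043) at 7 days, and KLF4 (-0.92), KLF5 (-0.64) and KLF10 (-1.03) for GSK591 against MS023. Under it the number of members called was 4 at 3 h of Dex (5.49% of all genes), 3 at 2 days of GSK591 (4.29%), 8 at 7 days of MS023 (70.7%), 9 for GSK591 against MS023 (69.9%), and 1 at 15 min and at 3 h of Dex after MS023 (0.31% and 4.39%). The 8 and 9 members lie near those shares of all genes. With only the groups compared, 1 was called for GSK591 with Dex (0.0875% of all genes), 6 at 7 days of GSK591 (21.4%), 4 for GSK591 against MS023 (15.1%) and 1 in the 3 h interaction of GSK591 (0.378%) and of MS023 (0.700%). With no filter, 1 was called in each 3 h interaction (0.205% and 0.235%). With 1 library left out, the number called ran from 2 to 4 at 2 days of GSK591 and of MS023, 3 to 5 at 4 days and 2 to 3 at 7 days of MS023, 1 to 2 for GSK591 against MS023, 1 to 2 and 1 to 3 at 15 min of Dex after GSK591 and after MS023, and 0 to 1 in the 3 h GSK591 interaction. The cause was not tested. DESeq2 lost 8 calls of single members.

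Replicate numbers are not said to mark a shared day or batch. Deviations of same-numbered libraries correlated with a median of 0.0214 over 105 pairs of groups (-0.451 to 0.487), so the numbers were not read as pairs. A replicate block changed 1 call of a member, KLF3 at 3 h of Dex after MS023 (-0.65, edgeR adjusted p = 0.0516). It kept every number of members called within 1.5 times, with 3 and 8 for 15 min and 3 h of Dex. The SE of a difference between 2 groups was 0.11 for KLF6 (319 to 1962 counts per library), 0.21 to 0.26 for KLF3 (41 to 142) and 0.17 to 0.22 for KLF11 (43 to 184). It was widest for KLF15 (0.28 to 0.31), which had 158 to 404 counts.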
